A study of Homo sapiens with 8 samples.

Results

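The genes described here are 6 ligands of the fibroblast growth factor (FGF) family, FGF2, FGF4, FGF8, FGF17, FGF18 and FGF19, and the 4 FGF receptors, FGFR1, FGFR2, FGFR3 and FGFR4. They were taken by gene symbol from a table of transcript levels and make up 10 of its 35940 symbols, each with 1 Ensembl row. The table came from poly(A) RNA sequencing of wild-type ESI017 cells, a human embryonic stem cell line, on the way to a posterior neural fate. All libraries came from cells in N2B27, which is free of serum and favours neural fates, to which the compounds labelled SB (10 μM) and LDN (100 nM) had been added. Recombinant WNT3A protein (300 ng/mL) was added at 34 h. Libraries were made at 34 h, the last point before WNT3A, and at 42, 50 and 72 h, with 2 libraries at each of the 4 time points, named replicate 1 and replicate 2. Each replicate number is also a batch number in the labels, so every batch holds 1 library of each time point. Cells without WNT3A were not analysed here, so WNT3A and the passage of time cannot be told apart in any comparison with 34 h, and the results come from 1 cell line.

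FGFs are secreted proteins that bind receptor tyrosine kinases together with heparan sulfate on the cell surface, and the activated receptors signal through the RAS and MAP kinase cascade. In human pluripotent cells FGF2 is the ligand best known for holding the undifferentiated state. In the embryo, FGFs from the caudal end keep progenitors posterior and undifferentiated, and FGF8, FGF17 and FGF18, which form a subfamily, are made at the boundary of midbrain and hindbrain. The receptors differ in which ligands they bind, partly through a choice between exons IIIb and IIIc in FGFR1, FGFR2 and FGFR3. Levels per gene, as used here, do not separate those forms.

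The labelled cell state was checked against marker genes. Of the pluripotency markers 8 of 8 and of the neural progenitor markers 6 of 7 reached 1 TPM in at least 2 libraries, where TPM is transcript abundance scaled for transcript length and library size; HES5 did not. Summed hindbrain markers went from 2.07 to 2.94 TPM at 34 h to 201 to 204 TPM at 72 h. Non-neural ectoderm markers summed to 317 to 324 TPM at 34 h, most of it KRT18 (272 and 267 TPM). Of the 6 genes of that list 3 stayed under 1 TPM in every library (GATA3, TP63 and DLX5). Mesoderm markers summed to at most 13.7 TPM, with TBXT at up to 11.4 TPM and MSGN1 listed at 0 in every library, and endoderm markers to at most 15.3 TPM, of which FOXA2 had up to 13.4 TPM and CXCR4 up to 7.21 TPM while SOX17 was listed at 0 in every library. Libraries of one time point had Spearman correlations between 0.980 and 0.984. TPM keeps no record of read numbers, so the depth of the libraries is unknown.

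The stretches of genome just upstream of 3 of the genes that changed are shown because the ligand FGF18, the receptor FGFR3 and the ligand FGF2 followed 3 different courses. The RefSeq promoter table (GRCh38.p14) matched 5 of the 10 genes by symbol. For FGF18 and FGFR3 the 250 bases before the RefSeq start site are given, and for FGF2 the 127 bases before the first base that GENCODE release 29 assigns to the gene. All 3 are on the plus strand and written 5′ to 3′. Capitals mark matches on either strand to CTTTGA, the core of the TCF/LEF motif, or to GGGCGG, the GC box.
FGF18, chr5:171419397-171419646: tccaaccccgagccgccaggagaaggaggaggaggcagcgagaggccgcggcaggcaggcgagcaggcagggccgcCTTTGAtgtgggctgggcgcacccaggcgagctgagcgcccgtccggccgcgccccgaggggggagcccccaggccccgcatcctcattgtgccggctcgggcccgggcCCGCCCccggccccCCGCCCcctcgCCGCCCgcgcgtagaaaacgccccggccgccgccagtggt
FGFR3, chr4:1793043-1793292: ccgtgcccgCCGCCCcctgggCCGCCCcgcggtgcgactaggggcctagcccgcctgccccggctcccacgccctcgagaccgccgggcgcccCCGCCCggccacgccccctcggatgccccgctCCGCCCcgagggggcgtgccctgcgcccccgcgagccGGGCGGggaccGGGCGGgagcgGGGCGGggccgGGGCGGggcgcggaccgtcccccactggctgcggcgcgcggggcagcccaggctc
FGF2, chr4:122826581-122826707: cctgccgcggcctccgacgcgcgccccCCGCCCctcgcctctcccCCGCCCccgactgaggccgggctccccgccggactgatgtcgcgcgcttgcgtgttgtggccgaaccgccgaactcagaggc
The FGF18 window held 1 CTTTGA match and 3 GC boxes, and the FGFR3 window held 8 GC boxes and no CTTTGA match. The whole FGF2 window of 250 bases held 3 GC boxes and no CTTTGA match. Of 35116 promoter windows of 250 bases in the table, 11.2% held CTTTGA and 42.6% held a GC box. The GC content of these windows was 78.8% for FGF18, 86.8% for FGFR3 and 75.2% for FGF2. A match is a run of letters, and binding was not measured.

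Among the 6 ligands, FGF18 and FGF19 rose at 42 h against 34 h and fell from 50 h to 72 h, FGF2 was lower at 72 h than at 34 h, FGF8 stayed between 7.25 and 12.4 TPM, and FGF17 and FGF4 were low. Differences were tested with limma on log2(TPM + 1), with Benjamini-Hochberg adjustment over the 14908 genes that reached 1 TPM in at least 2 libraries. Of the 10 genes, 9 reached this level; FGF4 did not. FGF17 and FGF18 were under 1 TPM in both 34 h libraries, so they entered the test through later libraries where they were higher. In bulk RNA, a change in the number of cells that make a transcript and a change in its amount per cell cannot be told apart.

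FGF18 (chromosome 5, 171419656 to 171457623, plus strand, GENCODE release 29 on GRCh38) is a secreted ligand of the FGF8 subfamily. It had 0.664 and 0.434 TPM in replicates 1 and 2 at 34 h, 8.53 and 5.72 at 42 h, 4.95 and 5.12 at 50 h, then 0.956 and 1.21 at 72 h. All 4 libraries at 42 h and 50 h lay above all 4 libraries at 34 h and 72 h. The rise at 42 h against 34 h was 2.37 ± 0.23 (SE) on the log2(TPM + 1) scale (limma adjusted p 0.00143). Replicate 1 gave 2.52 and replicate 2 gave 2.23, and the mean TPM was 13.0 times that at 34 h. At 50 h FGF18 was still 1.97 ± 0.23 above 34 h (adjusted p 0.00217). From 50 h to 72 h it fell by 1.54 ± 0.23 (limma adjusted p 0.00725, and 0.0671 without replicate 1 at 72 h). Its level at 72 h did not differ from 34 h past the threshold (0.43 ± 0.23, adjusted p 0.222).

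FGF19 (chromosome 11, 69698232 to 69704642, minus strand), an endocrine FGF whose circulating form regulates bile acid synthesis and which is also made in the embryonic brain, had a shorter course. Its levels were 4.0 and 2.87 TPM at 34 h, 11.6 and 10.3 at 42 h, 4.12 and 4.66 at 50 h, then 0.906 and 1.14 at 72 h. The 42 h libraries were the highest and the 72 h libraries the lowest, with no overlap with any other time point. The rise at 42 h was 1.44 ± 0.20 (limma adjusted p 0.00813; 1.33 and 1.55 within the replicates). That call was lost without replicate 2 at 34 h (adjusted p 0.0732), without replicate 1 or 2 at 42 h (0.0748 and 0.0552) and in a fit of 34 h and 42 h alone (0.0582). At 50 h its difference from 34 h was 0.29 ± 0.20 (adjusted p 0.473). FGF19 fell by 1.42 ± 0.20 from 50 h to 72 h (adjusted p 0.00535, and 0.0514 without replicate 1 at 72 h), and at 72 h it was 1.13 ± 0.20 below 34 h (log2 change -1.13, adjusted p 0.00525). Between 42 h and 50 h the change was -1.15 ± 0.20, with an unadjusted p of 0.000417 and an adjusted p of 0.108.

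FGF2 (chromosome 4, 122826708 to 122898236, plus strand) had the highest level of the 6 ligands in every library. It had 67.7 and 45.8 TPM at 34 h, 44.9 and 28.6 at 42 h, 37.9 and 26.0 at 50 h, then 18.1 and 17.8 at 72 h. Every later library lay below both 34 h libraries, and replicate 1 was above replicate 2 at each time point. The fall to 72 h was 1.58 ± 0.26 on the log2 scale (log2 change -1.58, limma adjusted p 0.00393; -1.85 and -1.32 within the replicates). The change at 50 h against 34 h was -0.81 ± 0.26 (adjusted p 0.129, and 0.0295 with the replicate number as a block), and that from 50 h to 72 h was -0.77 ± 0.26 (adjusted p 0.130, and 0.0316 with the block). The summed pluripotency markers went from 3557 to 3569 TPM at 34 h to 1939 to 2044 TPM at 72 h. Of these 8 markers 4 were lowered at 72 h (POU5F1, TDGF1, ZFP42 and DPPA4) and 1 was raised (SOX2). The summed non-neural ectoderm markers, mostly KRT18, went from 317 to 324 TPM to 83.1 to 92.7 TPM. The part of either list in the FGF2 result was not tested. NUDT6, a gene that overlaps FGF2 on the opposite strand, had 6.82 and 5.35 TPM at 34 h, against 10.5 and 12.1 TPM at 72 h. Whether the counting used strand is not given in the sources used here, so reads of FGF2 and NUDT6 in the overlap may not have been told apart.

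FGF8 (chromosome 10, 101770130 to 101780369, minus strand), the main ligand of the midbrain-hindbrain organiser, had 7.25 and 7.89 TPM at 34 h, 9.29 and 7.79 at 42 h, 12.4 and 7.51 at 50 h, then 10.1 and 10.7 at 72 h. The libraries at 42 h and at 50 h overlapped those at 34 h, while both 72 h libraries lay above. No contrast passed the threshold. The change at 72 h against 34 h was 0.42 ± 0.22 (limma adjusted p 0.211), or 0.43 in replicate 1 and 0.40 in replicate 2.

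FGF17 (chromosome 8, 22042398 to 22048809, plus strand), close to FGF8 in the family, had 0.449 and 0.179 TPM at 34 h, 2.75 and 0.330 at 42 h, 3.80 and 2.42 at 50 h, then 1.59 and 2.02 at 72 h. At 42 h only replicate 1 was above the 34 h range; at 50 h and 72 h both libraries were. The change against 34 h was 1.63 ± 0.45 at 50 h (limma adjusted p 0.0782) and 1.10 ± 0.45 at 72 h (0.118). Without replicate 1 at 42 h the adjusted p-values were 0.0196 and 0.0313, and without replicate 2 at 42 h they were 0.0172 and 0.0280. In a fit of 34 h and 72 h alone FGF17 was called (adjusted p 0.0309). FGF4 (chromosome 11, 69771016 to 69775403, minus strand), an early embryonic ligand, had 0.0860 and 0.108 TPM at 34 h, 0.481 and 0.311 at 42 h, 0.0569 and 0.0579 at 72 h, and at 50 h a listed 0 in replicate 1 and 0.266 in replicate 2, and was not tested.

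**Figure D1:**
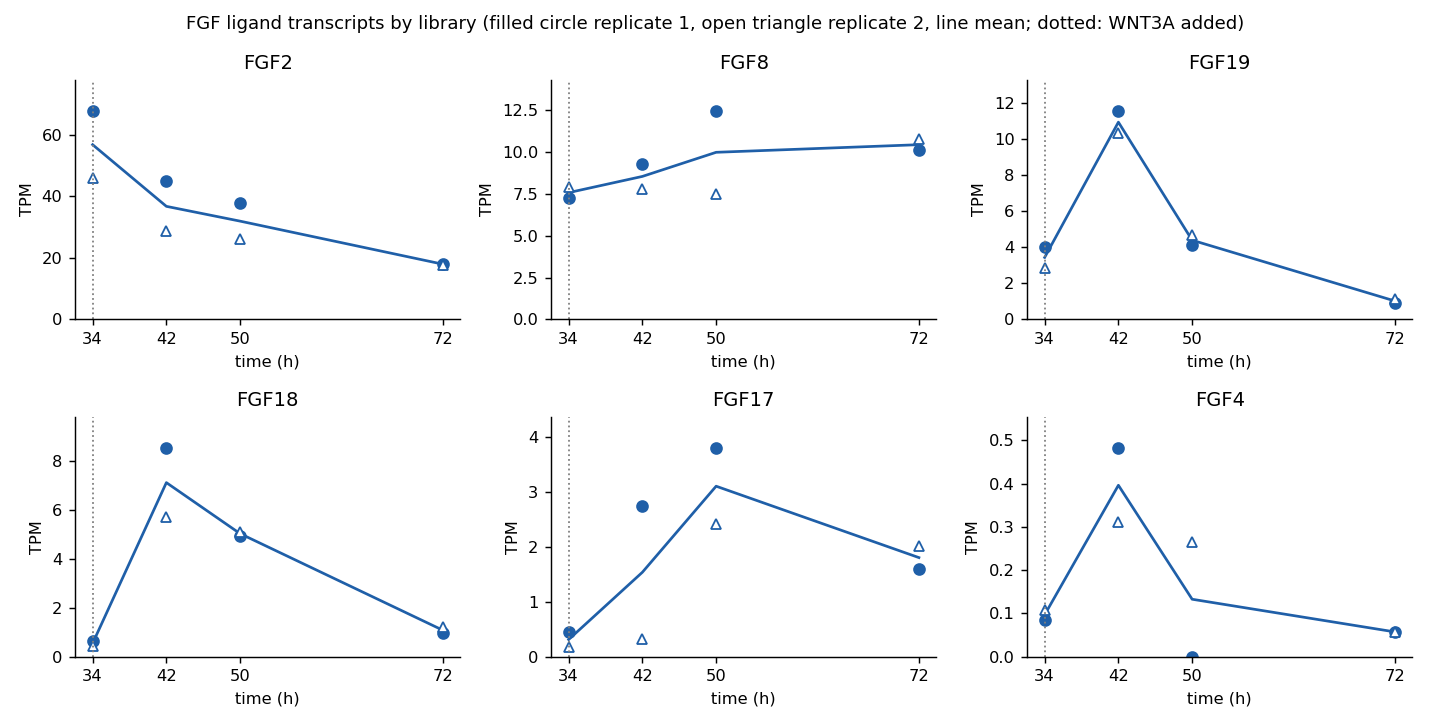
TPM of each FGF ligand against time in hours, 1 panel per gene with its own axis from 0; filled circles are replicate 1, open triangles replicate 2, lines join the means, and the dotted line marks WNT3A addition. FGF18 and FGF19 peak at 42 h, at 8.53 and 11.6 TPM in replicate 1, while FGF2 goes down from 67.7 to 18.1 TPM in that replicate.

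Among the receptors, FGFR3 rose at 50 h and again at 72 h, while FGFR1, FGFR2 and FGFR4 stayed within narrow ranges. FGFR3 (chromosome 4, 1793293 to 1808872, plus strand), a receptor made by neural progenitors of the embryonic brain and by growth plate cartilage, had 23.8 and 17.0 TPM at 34 h, 36.6 and 30.2 at 42 h, 55.7 and 40.4 at 50 h, then 161 and 141 at 72 h. The libraries of successive time points did not overlap, and this order held within each replicate. The change against 34 h was 0.69 ± 0.20 at 42 h, which passed with the replicate number as a block (limma adjusted p 0.0225) and not without it (0.152). It was 1.20 ± 0.20 at 50 h (adjusted p 0.0112; 1.19 and 1.20 within the replicates) and 2.84 ± 0.20 at 72 h (4.732e-05; 2.71 and 2.98 within the replicates), where the mean was 7.40 times that at 34 h. The 50 h call was lost without replicate 2 at 34 h (adjusted p 0.0788), without replicate 1 at 50 h (0.0674) and in a fit of 34 h and 50 h alone (0.0740). From 50 h to 72 h FGFR3 rose by 1.65 ± 0.20 (adjusted p 0.00257). The neural progenitor markers summed to 381 to 400 TPM at 34 h, 354 to 392 at 42 h, 455 to 512 at 50 h and 691 to 741 at 72 h. The neural crest markers summed to 7.08 to 9.02 TPM at 34 h, 4.14 to 6.78 at 42 h, 5.66 to 6.37 at 50 h and 12.4 to 14.1 at 72 h, while FOXD3 of that list was lowered at 72 h against 34 h and PAX3 and SNAI2 were raised. Against 34 h, CDH2 of the progenitor list was raised at 42 h, SOX1 and CDH2 at 50 h, and SNAI2 of the crest list at 50 h. The part of either list in the FGFR3 result was not tested.

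FGFR1 (chromosome 8, 38400215 to 38468834, minus strand), the receptor on which FGF signalling in pluripotent cells mainly rests, was the most abundant of the 10 genes in every library. It had 614 and 589 TPM at 34 h, 618 and 598 at 42 h, 750 and 662 at 50 h, then 703 and 743 at 72 h. The 50 h and 72 h libraries lay above those at 34 h, by little: the change at 72 h was 0.26 ± 0.08 (limma adjusted p 0.0492). Under 10 of 18 alternatives that call was lost, among them leaving out any 1 library at 34, 42 or 72 h (0.0735 to 0.222) and TMM rescaling (0.19, adjusted p 0.128). LETM2 on the opposite strand and the pseudogene RPS20P22 on the same strand overlap FGFR1, with at most 4.37 and 15.8 TPM in any library.

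FGFR2 (chromosome 10, 121478334 to 121598458, minus strand) had 58.3 and 57.9 TPM at 34 h, 51.5 and 56.0 at 42 h, 61.6 and 69.9 at 50 h, then 47.9 and 50.4 at 72 h. It was highest at 50 h and lowest at 72 h, without overlap between those time points. The change of -0.41 ± 0.11 from 50 h to 72 h had a limma adjusted p of 0.0548, and of 0.0489 with TMM rescaling. FGFR4 (chromosome 5, 177086886 to 177098144, plus strand) had 49.9 and 39.8 TPM at 34 h, 44.9 and 39.8 at 42 h, 49.0 and 39.9 at 50 h, then 42.4 and 46.7 at 72 h. Its libraries overlapped between all time points, and its changes against 34 h were between -0.08 and 0.00, each ± 0.15.

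**Figure D2:**
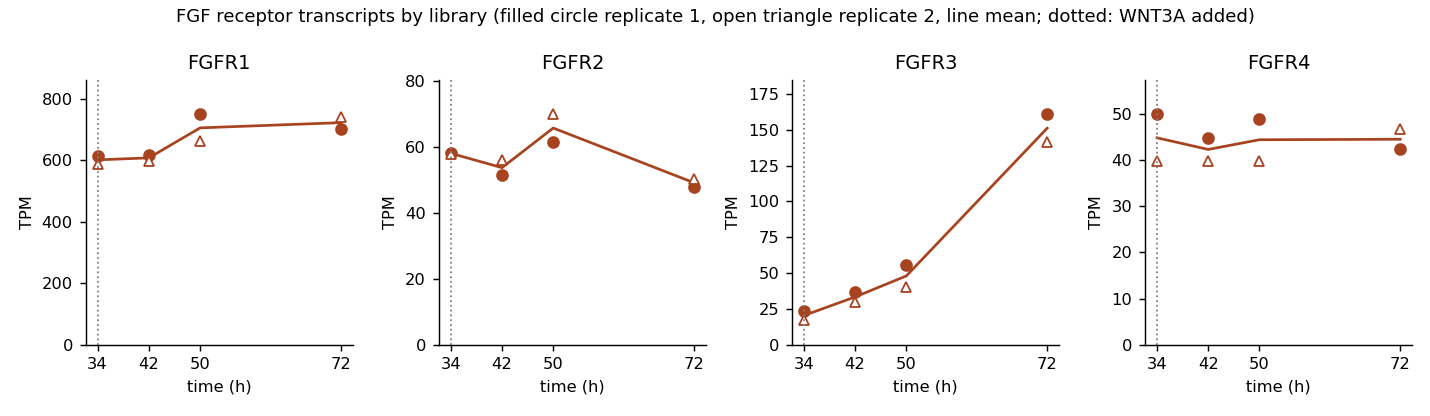
TPM of each FGF receptor against time in hours, 1 panel per gene with its own axis from 0; filled circles are replicate 1, open triangles replicate 2, lines join the means, and the dotted line marks WNT3A addition. FGFR3 goes from 23.8 and 17.0 TPM at 34 h up to 161 and 141 TPM at 72 h, and the libraries of FGFR4 stay between 39.8 and 49.9 TPM.

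Counted by contrast, 2 of the 9 tested genes were changed at 42 h against 34 h, both raised (FGF18 and FGF19), where 2.58% of all tested genes were changed, 1.78% raised and 0.792% lowered. At 50 h against 34 h 2 were raised (FGF18 and FGFR3), against 6.26% of all tested genes changed, 3.52% raised and 2.74% lowered. At 72 h against 34 h 4 were changed, FGFR1 and FGFR3 upwards and FGF2 and FGF19 downwards; here 24.0% of all tested genes were changed, 12.7% raised and 11.3% lowered. Between 42 h and 50 h 0 of the 9 were changed by limma, with 4 at an unadjusted p under 0.05 (FGF19, FGFR1, FGFR2 and FGFR3), and 0.0939% of all tested genes were changed, 0.0604% raised and 0.0335% lowered (9 and 5 genes, and 9 and 10 with TMM rescaling). From 50 h to 72 h 3 were changed, FGFR3 upwards and FGF18 and FGF19 downwards, against 7.33% of all tested genes, 2.92% raised and 4.41% lowered. Without replicate 1 at 72 h only FGFR3 was called there. Over the 4 time points a moderated F-test called FGF2, FGF18, FGF19 and FGFR3, 4 of the 9, against 17.4% of all tested genes. Without any 1 of replicate 1 at 34 h, replicate 1 at 72 h or replicate 2 at 72 h, FGF2 was not called by the F-test (adjusted p 0.0730, 0.112 and 0.111), nor without the filter on low values (0.0723). The contrasts with 34 h share the same 2 control libraries.

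**Figure D3:**
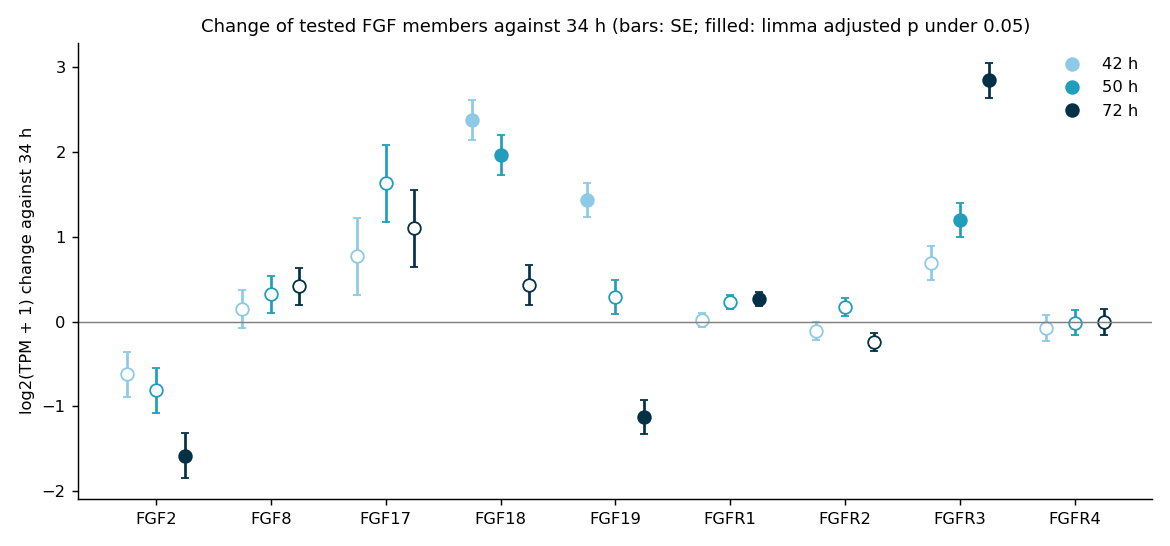
Change in log2(TPM + 1) against 34 h for the 9 tested genes at 42, 50 and 72 h; points are limma estimates, bars their standard errors, and filled points have an adjusted p under 0.05. FGF18 is high at 42 h and 50 h (2.37 and 1.97), FGFR3 is highest at 72 h (2.84), and FGF2 and FGF19 are below 0 at 72 h (-1.58 and -1.13).

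TPM is per transcript length, so levels of different genes can be set side by side. At 34 h the order by mean TPM was FGFR1, FGFR2, FGF2, FGFR4, FGFR3, FGF8, FGF19, FGF18, FGF17 and FGF4, and the libraries of FGFR2, FGF2 and FGFR4 overlapped from neighbour to neighbour, as did those of FGF18 and FGF17. At 42 h and 50 h FGFR2 came after FGFR1; at 42 h the libraries of FGFR4, FGF2 and FGFR3 overlapped from neighbour to neighbour, as did those of FGF8 and FGF18 and of FGF17 and FGF4, and at 50 h those of FGFR3 and FGFR4. At 72 h the order was FGFR1, FGFR3, FGFR2, FGFR4, FGF2, FGF8, FGF17, FGF18, FGF19 and FGF4, and of these neighbours FGF18 and FGF19 alone overlapped. FGFR3 had thus moved from the lowest of the receptors to the next after FGFR1. Its level per FGFR2 level was 0.408 and 0.294 in the 34 h libraries and 3.36 and 2.80 in the 72 h libraries.

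The make-up of the ligand transcripts differed between time points. FGF2 held 82.2% ± 3.19 (SD, n = 2) of the summed TPM of the 6 ligands at 34 h, 55.9% ± 2.86 at 42 h, 58.2% ± 2.38 at 50 h and 55.5% ± 2.12 at 72 h. FGF18 and FGF19 held 10.9% and 17.2% at 42 h, against 0.793% and 5.00% at 34 h. FGF8 held 11.4% ± 3.34 at 34 h and 32.2% ± 0.455 at 72 h. Its own mean level at 72 h was 1.38 times that at 34 h, a change that was not called. The summed ligand level was 80.2 and 57.3 TPM at 34 h, against 31.7 and 33.0 TPM at 72 h. In the FGF8 subfamily (FGF8, FGF17 and FGF18), the sum was 8.36 and 8.51 TPM at 34 h, 20.6 and 13.8 at 42 h, 21.2 and 15.1 at 50 h, then 12.7 and 14.0 at 72 h, with every later library above both 34 h libraries. Of the summed receptor TPM, FGFR1 held 83.0% ± 0.989 at 34 h and 74.7% ± 1.42 at 72 h, and FGFR3 2.81% ± 0.543 and 15.6% ± 1.73. These shares are given as values and were not tested.

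**Figure D4:**
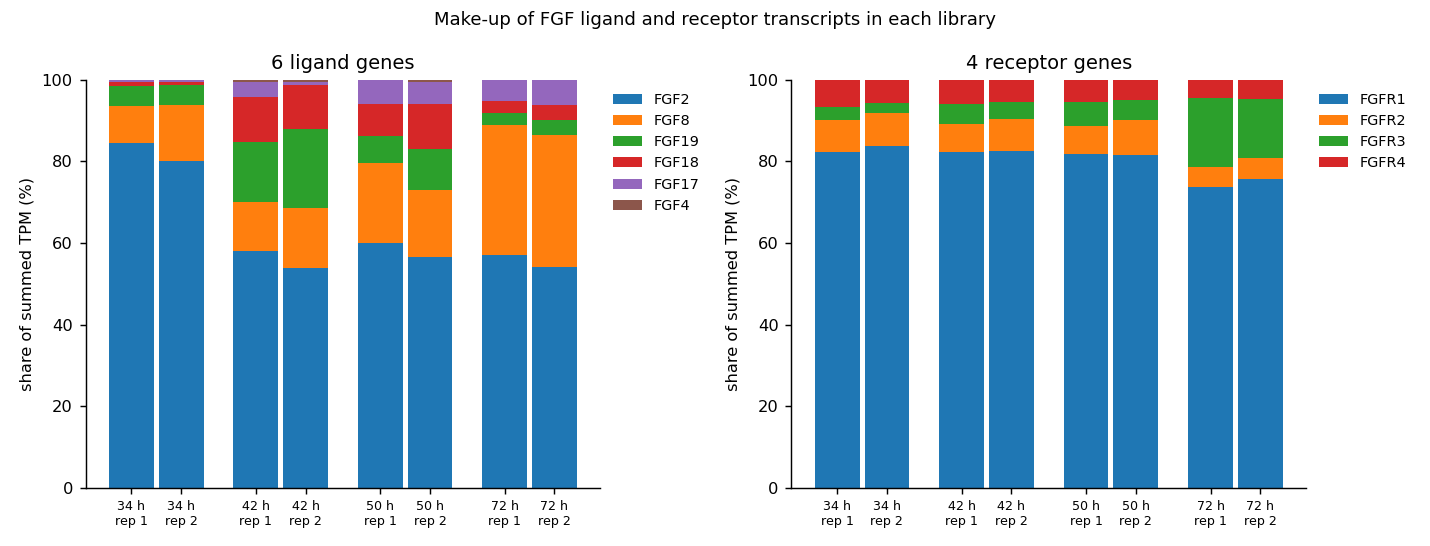
Share in percent of each gene in the summed TPM of the 6 FGF ligands (left) and the 4 FGF receptors (right), 1 stacked bar per library. FGF2 makes up 84.5% and 80.0% of the ligand bars at 34 h and 57.0% and 54.0% at 72 h, and the FGFR3 part of the receptor bars is 16.8% and 14.4% at 72 h.

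The genes whose levels ran most like those of the 4 genes called over time were found by Pearson correlation of log2(TPM + 1) over the 8 libraries, among 11539 genes with a mean of at least 5 TPM at their highest time point. For FGF18 they were SOX9 (0.985), TBXT (0.985) and DSP (0.985). For FGF19 they were CYLD (0.984), CYP51A1 (0.982) and TARDBP (0.980). For FGF2 they were CREB3L1 (0.986), CHPF (0.983) and SLC1A5 (0.983), and for FGFR3 CLCN2 (0.996), AFF1 (0.995) and GPR153 (0.994). These describe 8 libraries of 4 time points and carry no test. A correlation above 0.95 was reached by 25 genes for FGF18 and by 256 for FGFR3. TBXT is a mesoderm and caudal progenitor marker. The summed mesoderm markers, TBXT included, were from 1.67 to 2.01 TPM at 34 h, 10.4 to 13.7 at 42 h, 7.87 to 12.6 at 50 h, and 3.39 to 4.42 at 72 h. Of these 7 genes TBXT alone passed the filter, from 0.831 and 1.16 TPM at 34 h to 11.4 and 7.92 at 42 h, while 4 stayed under 1 TPM in every library. The part of mesoderm cells in the FGF18 result was not tested.

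The other genes of the pathway were read from 5 lists. The first list held 16 other FGF genes, among them FGF11, FGF12, FGF13 and FGF14, which are intracellular and not secreted. Of the 16, 6 passed the filter: FGF3, FGF9, FGF11, FGF12, FGF13 and FGF22. At 72 h 1 of these 6 was called changed against 34 h. This count is near the background, as 24.0% of all tested genes were changed. The gene called was FGF3, a ligand of the developing hindbrain and ear. Both libraries at 34 h list FGF3 at 0, and it had 1.5 and 0.438 TPM at 42 h, 1.07 and 0.200 at 50 h, then 2.18 and 1.52 at 72 h (limma adjusted p 0.0230 for 72 h against 34 h). FGF3 passed the filter only through later libraries where it was higher. The call of FGF3 was lost without any 1 library of 34 h or 72 h, and 9 of the 16 genes stayed under 1 TPM in every library. The median log2 change of the 6 at 72 h was 0.40, against 0.06 over all tested genes.

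Of 26 co-receptors and binding proteins 21 were tested. At 42 h 1 was lowered, at 50 h 1 was raised and 3 lowered, and at 72 h 4 were raised and 5 lowered, with a median of 0.10 against 0.06 over all tested genes. Over all tested genes 0.792% were lowered at 42 h, 3.52% raised and 2.74% lowered at 50 h, and 12.7% raised and 11.3% lowered at 72 h. At 50 h, without replicate 1 at 34 h or replicate 1 at 50 h, 0 were raised and 1 lowered, and without replicate 2 at 50 h 2 were raised and 1 lowered. Without 1 library of 34 h or 72 h the counts at 72 h went down to 2 raised (without replicate 2 at 34 h or either 72 h library) and 3 lowered (without replicate 1 at 34 h or replicate 2 at 72 h). GPC4, a glypican that carries heparan sulfate, had 170 and 165 TPM at 34 h, 84.7 and 92.6 at 42 h, 62.2 and 70.1 at 50 h, then 30.7 and 33.2 at 72 h. Its 4 time points did not overlap, and it was the gene lowered at 42 h (-0.91, limma adjusted p 0.00292) and the most lowered of the list at 72 h (-2.35 ± 0.10, adjusted p 5.944e-06). Also lowered at 72 h were HS6ST2, an enzyme that sulfates heparan chains (-0.99), and the glypican GPC3 (-0.71), of which HS6ST2 lost its call without replicate 1 at 34 h (adjusted p 0.0563) or replicate 2 at 72 h (0.0552). FGFBP3, which binds FGFs and releases them from the matrix, had 58.2 and 68.3 TPM at 34 h, against 252 and 220 TPM at 72 h (1.88 ± 0.11, limma adjusted p 1.783e-05). FLRT3, a membrane protein that binds FGF receptors, had 0.885 and 1.01 TPM at 34 h, against 6.67 and 7.98 TPM at 72 h (2.09 ± 0.27, limma adjusted p 0.00107). For both genes the 72 h libraries lay well above those of 34 h. The co-receptor KL was listed at 0 in every library, and KLB, which FGF19 uses as a co-receptor in the liver, was under 1 TPM in every library.

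The adaptors and the MAPK cascade had 20 of 20 genes tested. None of them was called by limma at 42 h or 50 h against 34 h. Over all tested genes 2.58% were changed at 42 h and 6.26% at 50 h, so a count of 0 in 20 is near the background. At 72 h the kinase MAPK3 (0.57) and the phospholipase PLCG1 (0.55) were raised, with a median of 0.11 over the list against 0.06 over all tested genes; 12.7% of all tested genes were raised in that contrast, so a count of 2 in 20 is near the background. The raised count of 2 was 0 without replicate 2 at 34 h or either 72 h library and 1 without replicate 1 at 34 h.

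Genes of FGF/ERK feedback and targets, 17 of 17 tested, had more lowered than raised members at 72 h. At 42 h 2 were raised, SPSB4, an adaptor of a ubiquitin ligase (0.96), and DUSP5, a phosphatase that acts on ERK (0.83), and 1 was lowered, the feedback inhibitor SPRY1 (-0.81), where 1.78% of all tested genes were raised and 0.792% lowered. These 3 calls were lost without any 1 library of 34 h or 42 h, and that of SPRY1 also without either 72 h library. At 50 h 1 was raised (SPSB4, 1.4) and 3 were lowered, among them SPRY1 (-1.23), against 3.52% raised and 2.74% lowered over all tested genes, with 1 lowered when either 34 h library or replicate 2 at 50 h was left out. At 72 h 1 was raised and 8 were lowered, with a median of -0.64 against 0.06 over all tested genes, of which 12.7% were raised and 11.3% lowered; the 8 were 5 without replicate 2 at 34 h or replicate 1 at 72 h. ETV4, a transcription factor induced by FGF signalling, had 66.1 and 61.9 TPM at 34 h, against 9.66 and 17.9 TPM at 72 h (-2.19 ± 0.25, limma adjusted p 0.000636). SPRY4, another feedback inhibitor, had 34.8 and 34.9 TPM at 34 h, against 8.55 and 8.47 TPM at 72 h (-1.91 ± 0.12, limma adjusted p 2.114e-05). SPRY1 had 14.6 and 15.9 TPM at 34 h, 8.16 and 8.29 at 42 h, 5.26 and 6.67 at 50 h, then 3.87 and 4.39 at 72 h, lower at each time point in turn without overlap. SPSB4 went the other way, with 16.6 and 15.1 TPM at 34 h, 34.4 and 29.3 at 42 h, 48.9 and 39.0 at 50 h, then 60.8 and 51.9 at 72 h. It was the 1 gene of the list raised at 50 h and at 72 h, and whether it responds to FGF signalling was not tested. DUSP5 was highest at 42 h, with 34.2 and 31.2 TPM, against 18.0 and 17.8 TPM before it at 34 h and 6.43 and 5.77 TPM after it at 72 h. From 34 h to 72 h the summed pluripotency markers went from 3557 to 3569 TPM to 1939 to 2044 TPM. The summed non-neural ectoderm markers, mostly KRT18, went from 317 to 324 TPM to 83.1 to 92.7 TPM. The part of either marker list in the fall of the feedback and target genes was not tested.

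**Figure D5:**
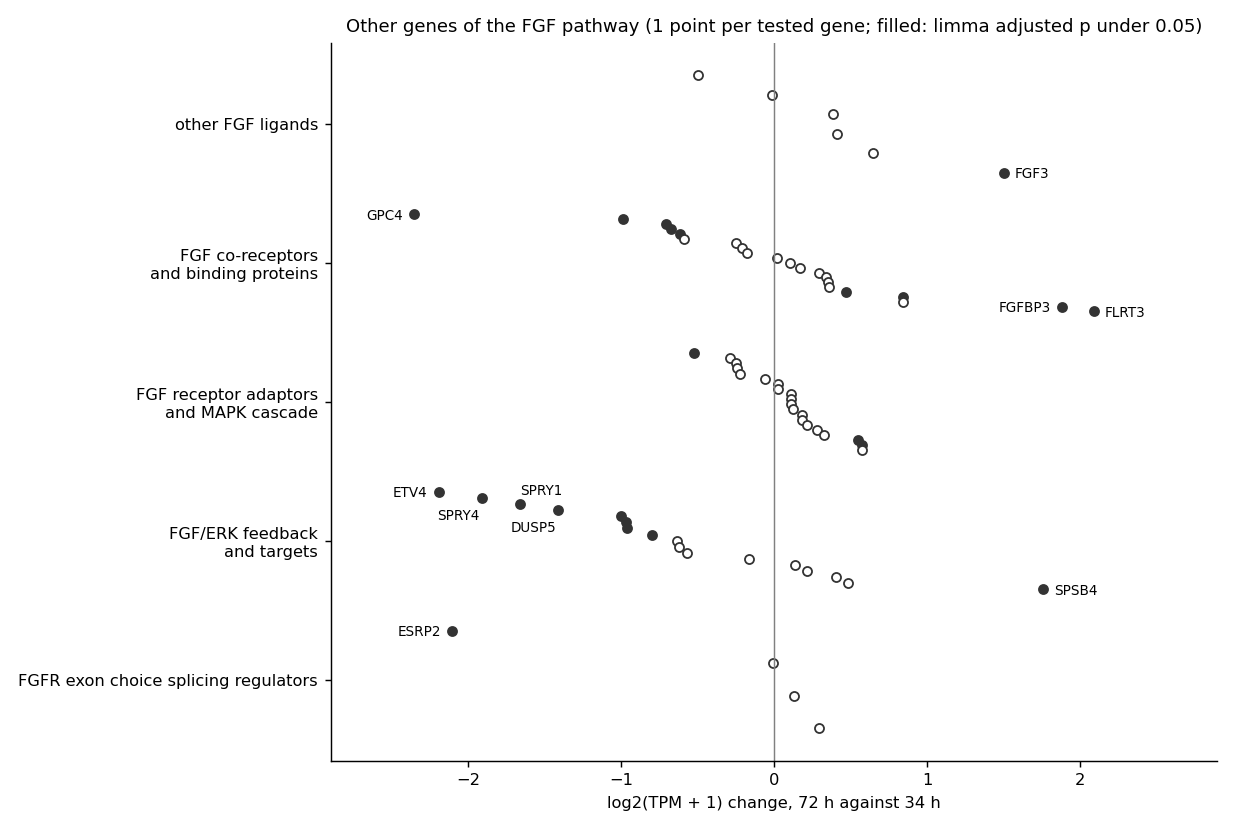
Change in log2(TPM + 1) at 72 h against 34 h for the tested genes of 5 further lists of the FGF pathway, 1 point per gene, filled where the limma adjusted p is under 0.05; the vertical spread within a list orders genes by change. GPC4 (-2.35), ETV4 (-2.19) and ESRP2 (-2.11) lie farthest to the left, and FLRT3 (2.09) and FGFBP3 (1.88) farthest to the right.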

How the data were processed

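The authors deposited 1 table of TPM per Ensembl gene, and all 8 of its library columns were used. Salmon 1.9.0 and GRCh38 are named in the submitters' processing notes; the annotation and any filter are not given in the sources used here. Each column summed to 1000000. Rows were summed by gene symbol. Symbols that reached 1 TPM in 2 or more libraries were kept (14908 genes), and log2(TPM + 1) was fitted with limma 3.58.1 in R 4.3.3, with 1 mean per time point, all libraries in the fit and a variance trend on the mean. A fold change on this scale understates changes of low genes. Adjusted p-values are two-sided Benjamini-Hochberg values over all tested genes, with a threshold of 0.05, and the fit was tested on simulated data. The labels call the replicate number a batch, which pairs the libraries; the differences between replicates correlated at 0.0949, 0.195 and 0.142 among 34, 42 and 50 h, and at -0.0445, -0.0779 and -0.104 between 72 h and those. The labels state an independent biological replicate, and with 2 libraries per time point p-values rest on the spread between them. The genes and lists were chosen with earlier results of these data known. From each list the text names up to 3 called genes per direction and contrast with the largest change against 34 h; genes are also named for being at or near 0. Alternatives for the lists were added after seeing the data. Protein sequences were not used here, and some genes of the marker and pathway lists are not reported here. Promoter sequences are from RefSeq.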

Additional observations from a re-analysis of the deposited data

How the results depend on the processing

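Over the 18 alternatives, 173 of 192 values of called changes of the FGF genes kept direction and side of the threshold, 19 lost the call and 0 changed direction. With a mean of at least 5 TPM the counts of changed genes were 0 at 42 h and 1 at 50 h against 34 h and 2 by the F-test, since this filter leaves out FGF17, FGF18 and FGF19. With the compared time points fitted alone they were 1 at 42 h, 1 at 50 h and 5 at 72 h (FGF17 added), with fewer samples in the fit. Leaving out 1 library gave 1 to 2 changed genes at 42 h, 1 to 3 at 50 h and 3 to 4 at 72 h against 34 h, 1 to 3 from 50 h to 72 h and 3 to 5 by the F-test; the lowest came without replicate 2 at 34 h or either 42 h library at 42 h, and without replicate 1 at 72 h for 50 h to 72 h. The replicate block gave 3, 3 and 4 changed genes at 42, 50 and 72 h against 34 h and 4 from 50 h to 72 h, and changed no call of the FGF genes beyond FGF2 and FGFR3 as given. Changes that were not called could change direction: FGFR4 from 50 h to 72 h was -0.010 with TMM rescaling. Leaving out 1 library, FGFR4 ranged from -0.24 to 0.085 at 42 h, -0.17 to 0.15 at 50 h and -0.16 to 0.16 at 72 h against 34 h, -0.081 to 0.21 from 42 h to 50 h and -0.14 to 0.15 from 50 h to 72 h. FGFR1 ranged from -0.015 to 0.046 at 42 h against 34 h and -0.054 to 0.13 from 50 h to 72 h, FGF2 from -0.50 to 0.13 from 42 h to 50 h, and FGF8 from -0.0088 to 0.65 at 50 h against 34 h, -0.16 to 0.50 from 42 h to 50 h and -0.23 to 0.43 from 50 h to 72 h. Counts over all genes ranged from 161 to 403 at 42 h (384 as reported), 398 to 966 at 50 h (933), 1867 to 3629 at 72 h (3578), 0 to 27 from 42 h to 50 h (14), 316 to 1138 from 50 h to 72 h (1093) and 1118 to 2635 by the F-test (2587). Depth is unknown, so no limit for low genes such as FGF4 can be given.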

Other observations

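The 4 intracellular FGFs, FGF11 to FGF14, which are not secreted and bind sodium channels, summed to between 24.7 and 30.6 TPM in every library, a range that holds for all 4 time points. FGF11 had 16.4 and 13.2 TPM at 34 h, against 15.0 and 14.0 TPM at 72 h, and FGF13 had 9.30 and 10.8 TPM at 34 h, against 8.64 and 5.32 TPM at 72 h. Of the 4 tested genes known to influence the choice between receptor exons IIIb and IIIc, 1 was called changed at 72 h against 34 h, where 24.0% of all tested genes were, so the count says nothing particular of the list. It was ESRP2, which promotes the epithelial IIIb form and had 24.2 and 25.9 TPM at 34 h, 21.4 and 21.7 at 42 h, 17.1 and 14.7 at 50 h, then 3.65 and 6.84 at 72 h. Its change at 72 h against 34 h was -2.11 ± 0.23 (limma adjusted p 0.000467). Exon use of the receptors was not measured in the table.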
